A study of Mus musculus with 4 samples.

Results

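Invariant natural killer T (iNKT) cells were compared with CD44-high CD4+ T cells (CD44hi), both from the spleen of mice labelled wild type (WT) on the C57BL/6 background, with 1 RNA sequencing library on each side. A gene was taken into the comparison when its FPKM, a fragment count divided by transcript length and by the size of the library, was at least 5 in 1 of the 2 libraries. This held for 8583 of the 22473 genes used, and these 8583 are called measured below. The study holds 4 libraries. The other 2 (KO) are the same sorts from mice with the genotype Ezh2fl/fl CD4-Cre, where the Cd4 promoter drives the Cre that is to delete a floxed part of Ezh2 in T cells. The iNKT cells were sorted by staining for the T cell receptor beta chain and by binding of CD1d tetramers loaded with the glycolipid PBS-57, and the CD44hi cells by staining for that chain, for CD44 and for CD4. The labels give neither the age, sex and number of the mice nor whether animals were pooled, and they leave unsaid whether the CD44hi gate left out cells that bind the tetramer. With 1 library per side there is no spread between replicates, so every difference is a difference between these libraries and carries no test.

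iNKT cells carry a nearly invariant T cell receptor that recognises glycolipids on the MHC class I-like molecule CD1d. They mature in the thymus into effector cells under the transcription factor PLZF, carry receptors otherwise known from natural killer (NK) cells, and release cytokines such as IL-4 and interferon gamma soon after stimulation. CD44-high CD4+ cells are antigen-experienced T cells. In the spleen they take in memory cells, follicular helper cells, which help B cells, and regulatory T cells, which restrain responses, and a gate on CD44 and CD4 does not separate these.

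The T cell identity of both libraries was checked on its defining genes. Cd3e, a CD3 chain, stood at 357 FPKM in WT iNKT and 308 in WT CD44hi, Cd3d at 296 against 176 FPKM, Cd3g at 513 against 542 FPKM, and the receptor-proximal kinase gene Lck at 361 against 397 FPKM, each within 2-fold. The other 3 of the 7 defining genes, present in both libraries, were more than 2-fold lower in WT iNKT. They were Cd247, which encodes the CD3 zeta chain (121 against 254 FPKM), Cd5 (103 against 286 FPKM) and Cd2 (166 against 394 FPKM). Cd44, the gating marker of the CD4 sort, was at 83.3 FPKM in WT iNKT and 54.3 in WT CD44hi, so it did not separate the libraries. Cd8a was listed at 0 in WT iNKT and at 1.33 FPKM in WT CD44hi, and Cd8b1 at 0.958 against 9.87 FPKM. The depth, estimated from the spacing of the lowest FPKM values, was 3.64 times as great in WT CD44hi as in WT iNKT. In a transcript of 2 kilobases 1 fragment was then worth 0.108 FPKM in WT iNKT and 0.0295 FPKM in WT CD44hi. Gene-level Ezh2 was 15.3 FPKM in WT iNKT, 28.9 in WT CD44hi, 16.8 in KO iNKT and 18.5 in KO CD44hi, a value that does not resolve the floxed part and so does not check the KO labels. The Y-linked gene Eif2s3y was listed at 0 in WT iNKT and in both KO libraries and stood at 22.7 FPKM in WT CD44hi, while Xist, transcribed from the inactive X chromosome, was between 46.8 and 80.0 FPKM in every library. The 8 Y-linked genes summed to 40.3 FPKM in WT CD44hi and 0.0578 FPKM in WT iNKT, where 7 of them were listed at 0. The WT libraries thus differ in Y-linked RNA, and for every gene the sex of the animals and the cell type cannot be told apart.

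Differences were taken on log2(FPKM + 1), a scale that understates the difference of low genes, and a gene was called higher or lower at a difference of at least 2-fold on it. Of the 8583 genes, 318 were higher in WT iNKT (3.7% of them) and 693 were lower (8.07%), and 7572 (88.2%) lay within 2-fold. At 4-fold the counts were 70 and 324, and at 8-fold 9 and 145, so the large differences were mostly genes low in WT iNKT. The median difference over all 8583 was -0.04. The higher genes had a median of 27.8 FPKM in WT iNKT and 8.28 FPKM in WT CD44hi. Of these 318, 210 were at 5 FPKM or more in WT CD44hi too, and only 13 were below 1 FPKM there. The lower genes had a median of 13.2 FPKM in WT CD44hi and 2.29 FPKM in WT iNKT, and 228 of the 693 were below 1 FPKM in WT iNKT. Genes higher in WT iNKT were thus mostly raised from a level that WT CD44hi already had.

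**Figure D1:**
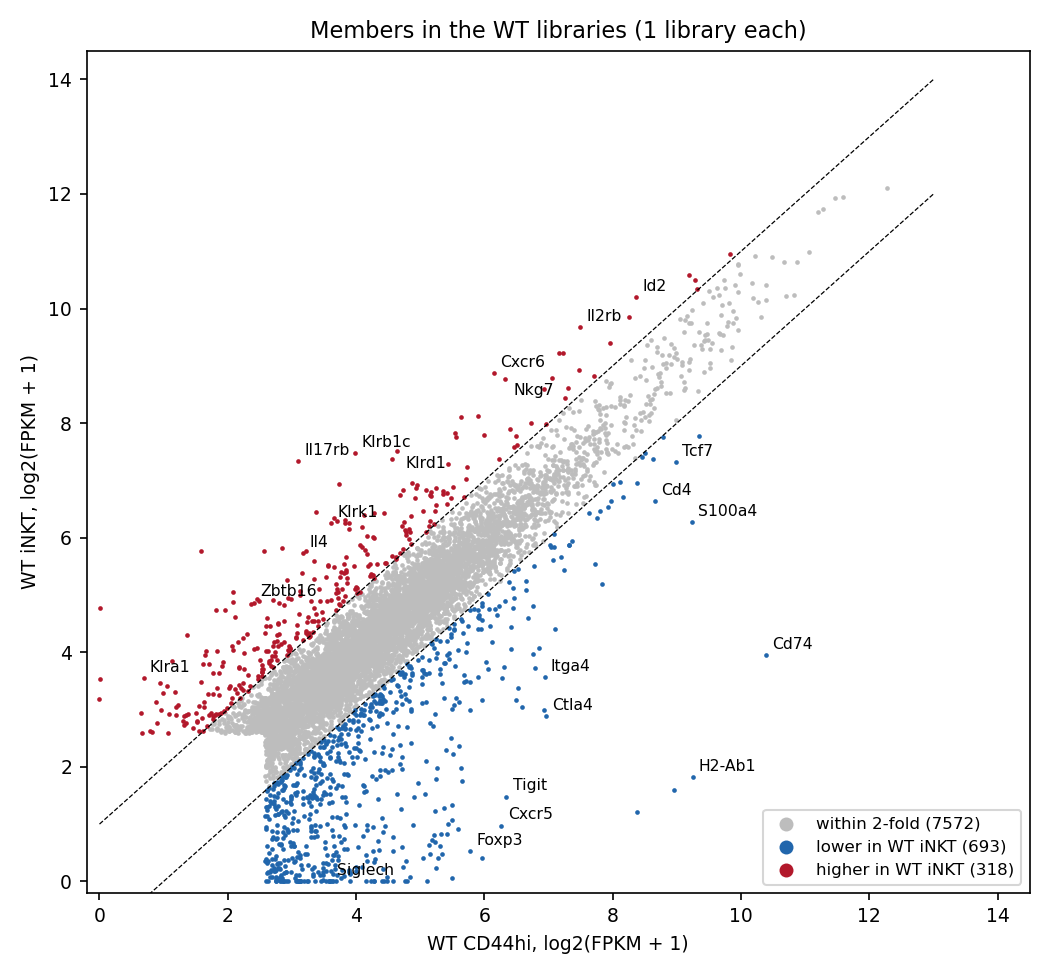
Each point is 1 of the 8583 genes, with log2(FPKM + 1) in WT CD44hi on the x axis and in WT iNKT on the y axis, and dashed lines mark a 2-fold difference. The 318 higher genes (red) spread close to the upper line, with Il17rb farthest among the named ones, and the 693 lower genes (blue) reach down to the x axis, where Siglech is listed at 0 in WT iNKT.

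The transcription factors that direct iNKT development split in both directions. Of the 40 measured genes on a list of NKT lineage regulators, 5 were higher in WT iNKT and 13 lower, with a median difference of -0.31. Zbtb16, which encodes PLZF, was at 28.2 FPKM in WT iNKT and 4.30 in WT CD44hi, 6.56-fold higher in WT iNKT (5.79 to 7.43). The interval given with each ratio is a 95% exact Clopper-Pearson interval on the estimated fragments and covers the error of counting alone, without any variation between mice or sorts. Id2, an inhibitor of E protein transcription factors, was at 1172 FPKM in WT iNKT and 327 in WT CD44hi, 3.58-fold higher in WT iNKT (3.46 to 3.70). Tbx21, which encodes the type 1 factor T-bet, was at 70.4 FPKM in WT iNKT and 27.3 in WT CD44hi, 2.58-fold higher in WT iNKT (2.36 to 2.82). Satb1, a chromatin organiser of T cells, was at 107 against 34.5 FPKM, and Ikzf3, which encodes the zinc finger factor Aiolos, at 104 against 50.5 FPKM. These 5 were the higher genes of the list, and Ikzf3 was short of 2-fold (0.98) when the libraries were scaled without genes of other cells.

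The lower regulators included factors known from early precursors, from receptor signalling and from follicular helper cells. Id3, the partner inhibitor of Id2, was at 11.4 FPKM in WT iNKT and 38.7 in WT CD44hi, 3.41-fold lower in WT iNKT (2.65 to 4.5). Egr2, an early growth response factor induced by T cell receptor signals and known to act upstream of PLZF in the thymus, was at 1.96 FPKM in WT iNKT and 16.3 in WT CD44hi, 8.32-fold lower in WT iNKT (5.72 to 12.6). Egr1 (26.1 against 70.6 FPKM) and Egr3 (5.43 against 17.97 FPKM) were lower as well. Tcf7, which encodes the memory and progenitor factor TCF-1, was 159 against 505 FPKM, 3.17-fold lower in WT iNKT (3.01 to 3.34). Tox stood at 6.58 against 36.7 FPKM, Tox2 at 0.658 against 35.4 FPKM and Bcl6, the defining repressor of follicular helper cells, at 5.59 against 24.1 FPKM. All 3 are also known from follicular helper cells, whose part in these values was not tested. Gata3 (53.5 against 36.8 FPKM), Runx3 (24.8 against 30.05 FPKM) and Lef1 (30.9 against 45.4 FPKM) lay within 2-fold. Gata3 is the type 2 factor of T cells, and Runx3 a factor of cytotoxic T cells. Maf, at 36.7 against 74.4 FPKM, lay just inside the 2-fold line.

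After Eif3j, whose estimate is uncertain, Il17rb had the largest difference among the genes with an established symbol. It encodes a receptor subunit for the cytokine IL-25 and stood at 159.9 FPKM in WT iNKT and 7.55 in WT CD44hi, 21.2-fold higher in WT iNKT (18.6 to 24.3). Chdh, which encodes the mitochondrial choline dehydrogenase, was at 28.2 FPKM in WT iNKT and 3.24 in WT CD44hi, 8.72-fold higher in WT iNKT (7.54 to 10.1). The 2 genes lie head to head on chromosome 14 of the mm10 build. Il17rb is on the minus strand at chr14:29996135-30008896 and Chdh on the plus strand at chr14:30009023-30040527, with 127 bases between their starts by the GENCODE annotation. The promoter window of Il17rb is printed because both genes differed the same way. This window of 300 bases takes in the stretch between the 2 starts and reaches into both genes. It runs 5′ to 3′ in the direction of Il17rb, from RefSeq on GRCm38.p6, minus strand, chr14:30008847-30009146, and holds none of the 5 motifs searched, so it has no capitals.
Il17rb: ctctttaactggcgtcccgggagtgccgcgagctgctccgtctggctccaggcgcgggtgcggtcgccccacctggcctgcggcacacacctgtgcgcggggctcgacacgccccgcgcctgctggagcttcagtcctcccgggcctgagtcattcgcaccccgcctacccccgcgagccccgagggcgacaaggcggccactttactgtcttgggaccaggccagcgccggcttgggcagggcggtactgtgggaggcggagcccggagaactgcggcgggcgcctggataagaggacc
Among the 8583 genes there were 308 such pairs on opposite strands with starts at most 500 bases apart. In 3 of them both genes were higher in WT iNKT, in 1 both were lower, and in 282 both lay within 2-fold. In 11 pairs 1 gene was higher and the other within 2-fold, and in 11 pairs 1 was lower and the other within 2-fold. In 0 pairs was 1 gene higher and the other lower, beside shares of 3.7% higher and 8.07% lower over all 8583 genes. Most pairs with a called gene thus had only 1 called. In the KO libraries Il17rb was 126 in KO iNKT and 80.9 in KO CD44hi (FPKM), and Chdh 37.6 in KO iNKT and 27.6 in KO CD44hi. Both genes were thus far higher in KO CD44hi than in WT CD44hi, as Zbtb16 was, at 63.1 in KO iNKT and 41.4 in KO CD44hi.

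Among the T cell lists, NK cell receptors had the highest share of genes higher in WT iNKT. Of the 34 listed genes 21 passed the 5 FPKM limit, 14 of them higher and 5 lower, with a median difference of 2.25. Over all 8583 genes 3.7% were higher and 8.07% lower. Some of the 14, such as Klrc2 and Klre1, passed the limit through WT iNKT alone, which favours the higher count. With a filter at 1 FPKM, 17 of 30 were higher and 8 lower, with a median of 1.55. Klrb1c, which encodes NK1.1, the marker that gave NKT cells their name, was at 177 FPKM in WT iNKT and 14.9 in WT CD44hi, 11.9-fold higher in WT iNKT (10.8 to 13.1). Klrd1, which encodes CD94, was at 182 FPKM in WT iNKT and 23.9 in WT CD44hi, 7.58-fold higher in WT iNKT (6.62 to 8.71). CD94 pairs with the NKG2 receptors, and their genes were higher too. Klrc1 was 69.8 against 13.8 FPKM, Klrc2 53.5 against 4.92 FPKM and Klrc3 18.8 against 1.57 FPKM. Klrk1, which encodes the activating receptor NKG2D, was at 75.4 FPKM in WT iNKT and 11.2 in WT CD44hi, 6.74-fold higher in WT iNKT (5.73 to 7.98), and Hcst, its signalling adaptor DAP10, at 388 against 121 FPKM. Klre1 was at 25.7 against 2.89 FPKM, 8.89-fold higher in WT iNKT (6.57 to 12.3). The receptors Cd160 (75.2 against 13.2 FPKM) and Cd226 (116 against 29.6 FPKM), which bind herpesvirus entry mediator and nectin-family ligands, were higher by 5.71-fold (5.13 to 6.36) and 3.91-fold (3.58 to 4.29).

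6 of these genes follow one another among the measured genes of chromosome 6. Klre1, Klrd1, Klrk1, Klrc3, Klrc2 and Klrc1 fill the NK gene complex stretch chr6:129577905-129678973 (mm10), and each of the 6 was higher in WT iNKT. No longer run of neighbours called in 1 direction was found among the 24 runs of at least 3 genes. The Ly49 genes Klra1 and Klra3 lie in a further run of the same complex, chr6:130290878-130386874. Klra1 was at 10.7 FPKM in WT iNKT and 0.610 in WT CD44hi, 17.5-fold higher in WT iNKT (10.2 to 31.2), and Klra3 at 10.1 FPKM in WT iNKT and 0.925 in WT CD44hi. Klra23 was at 8.04 FPKM in WT iNKT and at 2.12e-06 in WT CD44hi. Genes within the Ly49 family, and Klrc1, Klrc2 and Klrc3 among themselves, include near-identical copies, so the split of fragments within each set is uncertain. The 5 lower genes of the list were Tyrobp (6.95 against 121 FPKM), Fcer1g (7.25 against 95.2 FPKM), Klri1 (0.458 against 19.5 FPKM), Cd244 (0.0545 against 5.46 FPKM) and Klrg1 (1.33 against 9.32 FPKM). Tyrobp and Fcer1g encode adaptors used by NK cells and also by myeloid cells. NK-defining Ncr1 was at 0.154 against 1.42 FPKM and Eomes at 0 against 3.51 FPKM, so neither NK gene was high in WT iNKT.

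**Figure D2:**
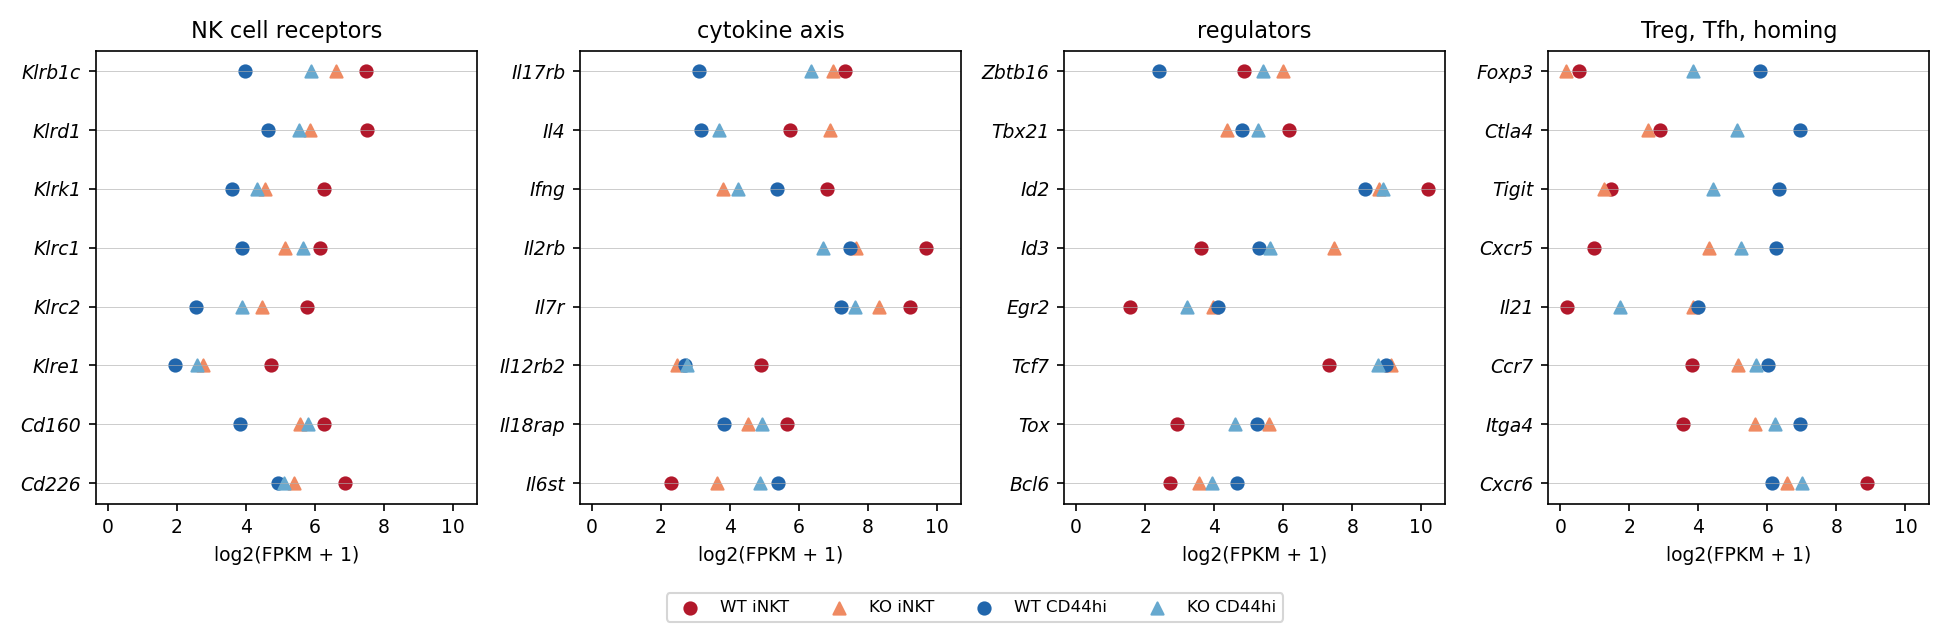
Each row is 1 gene and each symbol 1 library, on log2(FPKM + 1); circles are WT, triangles KO, red and orange iNKT, dark and light blue CD44hi. In the NK receptor panel WT iNKT lies to the right of the other 3 libraries for all 8 genes, and in the right-hand panel WT CD44hi lies to the right for every gene but Cxcr6.

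Among the T cell lists, genes of the type 1 response had the next highest share, 12 of 22 measured, with 3 lower and a median difference of 1.38. Ifng, which encodes interferon gamma, was at 112 FPKM in WT iNKT and 39.98 in WT CD44hi, 2.79-fold higher in WT iNKT (2.50 to 3.11). The chemokine genes Ccl5 (925 against 306 FPKM) and Xcl1 (149.97 against 51.8 FPKM) were 3.03-fold (2.83 to 3.24) and 2.90-fold (2.44 to 3.42) higher. The receptor chains that respond to IL-12 and IL-18 differed the same way. Il12rb2 was at 29.1 against 5.49 FPKM, 5.31-fold higher in WT iNKT (4.52 to 6.21), Il12rb1 at 63.7 against 18.3 FPKM and Il18rap at 49.4 against 13.3 FPKM. Il18r1, the other chain of the IL-18 receptor, was at 69.7 against 58.9 FPKM, within 2-fold. Nkg7, a granule membrane gene of cytotoxic cells, was at 437 FPKM in WT iNKT and 78.7 in WT CD44hi, 5.55-fold higher in WT iNKT (5.12 to 6.01). Txk, a Tec family kinase gene, was at 85.4 against 20.7 FPKM, and Fasl, the death ligand, at 41.3 against 12.7 FPKM. The 3 lower genes of the list were Ccl3 (0.660 against 12.99 FPKM), Ccl4 (0.849 against 9.21 FPKM) and Tnf (17.2 against 41.8 FPKM), which encode 2 inflammatory chemokines and the cytokine TNF and are also transcribed by myeloid cells.

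Granule and cytotoxic genes were higher in 8 of 22 and lower in 3, with a median difference of 0.75. Serpina3f, a serpin gene, was at 77.6 FPKM in WT iNKT and 12.01 in WT CD44hi, 6.46-fold higher in WT iNKT (5.75 to 7.26), and Ctsw, which encodes the lymphocyte cathepsin W, at 279 FPKM in WT iNKT and 58.6 in WT CD44hi, 4.77-fold higher in WT iNKT (4.41 to 5.15). The granzyme inhibitor genes Serpinb6b (71.4 against 16.1 FPKM) and Serpinb9 (22.2 against 8.97 FPKM) were higher as well. The pore-forming gene Prf1 was low but higher in WT iNKT, at 11.6 against 4.79 FPKM. The granzymes themselves were not higher. Gzma stood at 1.72 against 9.97 FPKM, Gzmb at 4.63 against 9.22 FPKM, and Gzmk was listed at 0 against 21.3 FPKM, at least 30.4-fold lower in WT iNKT against a floor of 3 fragments. The 8 higher genes of this list were 3 serpins, cathepsin W, Nkg7, Fasl, Prf1 and Sytl3, a vesicle transport gene, and no granzyme.

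Promoters of 2 of the higher genes are shown because each holds 1 of the motifs searched, a T-box and a Runx motif. The motifs were T-box AGGTGTGA, EGR GCGNGGGCG, E-box CAGCTG, Runx TGTGGTTT and ETS CAGGAAGT, each on both strands of the 250 bases before and 50 bases after the start, and none of the 5 contains another. Sequences are from RefSeq on GRCm38.p6, 5′ to 3′ along the gene, with the match in capitals. Nkg7 is at chr7:43436888-43437187 on the plus strand with a T-box match, and Klra1 at chr6:130386825-130387124 on the minus strand with a Runx match.
Nkg7: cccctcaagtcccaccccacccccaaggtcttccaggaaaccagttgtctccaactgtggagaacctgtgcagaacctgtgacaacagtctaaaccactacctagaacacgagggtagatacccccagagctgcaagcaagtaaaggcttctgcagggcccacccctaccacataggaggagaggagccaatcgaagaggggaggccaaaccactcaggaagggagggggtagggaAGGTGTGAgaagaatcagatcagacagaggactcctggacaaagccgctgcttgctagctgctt
Klra1: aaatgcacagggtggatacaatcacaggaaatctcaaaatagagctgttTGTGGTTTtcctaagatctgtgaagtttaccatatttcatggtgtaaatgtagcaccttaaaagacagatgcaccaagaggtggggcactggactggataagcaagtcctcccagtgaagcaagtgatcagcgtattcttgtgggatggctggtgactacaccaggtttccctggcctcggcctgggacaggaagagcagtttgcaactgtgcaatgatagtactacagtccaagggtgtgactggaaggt
Promoters were found for 245 of the 318 higher genes, 519 of the 693 lower genes and 6887 of all 8583. The T-box motif was in 2.04% of the higher genes' promoters, 0.578% of the lower, 1.03% of all measured genes and 1.28% of the 32851 promoters of the table. That is only 5 higher and 3 lower genes. The Runx motif was in 4.08%, 2.50%, 1.52% and 1.78% in the same order, which is 10 higher and 13 lower genes. For the E-box motif the shares were 19.2%, 23.5%, 16.4% and 16.3%, for EGR 15.5%, 13.5%, 12.5% and 5.55%, and for ETS 5.71%, 6.36%, 4.89% and 3.33%. A gene with several starts counted once if any of its promoters matched. The 32851 promoters were counted singly, so their share is not measured like the gene shares. A match says only that the letters are there.

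Type 2 genes differed in both directions, with 2 of 11 higher and 5 lower and a median difference of -0.98. The 2 higher were Il17rb and Il4. Il4, the type 2 cytokine gene that iNKT cells are known to transcribe at rest, was at 52.3 FPKM in WT iNKT and 8.03 in WT CD44hi, 6.52-fold higher in WT iNKT (4.69 to 9.07). Il13 was at 1.16 against 0.157 FPKM and Il5 at 0 against 0.197 FPKM, under the 5 FPKM limit in both libraries. The lower genes were Ccr4 (10.8 against 31.4 FPKM), Ccr8 (0.813 against 6.67 FPKM), Il6ra (10.4 against 51.7 FPKM), Il10 (0.176 against 5.86 FPKM) and Il9r (0.605 against 12.6 FPKM). Ccr4, Ccr8 and Il10 are also known from regulatory T cells. Of 12 type 17 genes 0 were higher and 7 were lower, with a median difference of -1.25. Ccr6, the chemokine receptor of type 17 cells, was at 0.190 FPKM in WT iNKT and 25.7 in WT CD44hi, 135-fold lower in WT iNKT (25.9 to 5746), a ratio that rests on about 1 fragment in WT iNKT. Tmem176a (6.94 against 54.04 FPKM) and Tmem176b (10.8 against 76.4 FPKM), which type 17 and myeloid cells both transcribe, were lower too. Il17a itself was at 0.200 against 1.74 FPKM.

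Cytokine receptor and JAK-STAT genes numbered 7 higher and 7 lower of 41 (17.1% each), beside 3.7% higher and 8.07% lower over all 8583 genes. Il2rb, the beta chain of the IL-2 and IL-15 receptors, was at 814 FPKM in WT iNKT and 178 in WT CD44hi, 4.56-fold higher in WT iNKT (4.46 to 4.67), and Il7r, the alpha chain of the IL-7 receptor, at 598 FPKM in WT iNKT and 148 in WT CD44hi, 4.04-fold higher in WT iNKT (3.93 to 4.15). These receptors carry homeostatic survival signals, and both genes were high in both libraries. Both genes of the IL-6 receptor were lower. Il6st, which encodes the shared signalling chain gp130, was at 3.91 FPKM in WT iNKT and 41.05 in WT CD44hi, 10.5-fold lower in WT iNKT (9.03 to 12.3), and Il6ra, its IL-6-binding partner, was 4.99-fold (4.45 to 5.61) lower. Il10ra was at 7.77 against 47.8 FPKM and Ifngr2, a chain of the interferon gamma receptor, at 3.53 against 15.1 FPKM. Of the feedback inhibitors, Socs2 was higher at 27.3 against 12.4 FPKM and Socs3 lower at 19.1 against 49.8 FPKM.

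Genes of homing receptors differed in both directions. Cxcr6, whose ligand CXCL16 is displayed by cells lining the liver sinusoids, was at 468 FPKM in WT iNKT and 69.6 in WT CD44hi, 6.72-fold higher in WT iNKT (6.38 to 7.08). Ccr2, a receptor for inflammatory chemokines, was at 106 against 24.6 FPKM, higher by 4.30-fold (3.99 to 4.63). Ccr9, a receptor known from gut homing and the thymus, was at 40.96 against 7.91 FPKM, and the integrin gene Itgb3 at 75 against 13.8 FPKM, 5.44-fold higher in WT iNKT (5.09 to 5.82). Cxcr3 was at 234 against 137 FPKM, within 2-fold. The receptors that guide cells into lymph nodes and out of tissue were lower in WT iNKT. Ccr7 was at 13.2 against 64.02 FPKM, 4.84-fold lower in WT iNKT (4.05 to 5.89), and S1pr1, the egress receptor, at 26.99 against 107 FPKM. Klf2, a factor known to drive S1pr1, was at 47.7 against 133 FPKM. Itga4, which encodes the alpha 4 integrin chain, was at 10.9 FPKM in WT iNKT and 122 in WT CD44hi, 11.2-fold lower in WT iNKT (10.3 to 12.2), and Itgb1, its beta 1 partner, at 79.99 against 214 FPKM. In all 28 trafficking genes 5 were higher and 12 lower, and of the 23 naive and recirculation genes 5 were higher and 11 lower.

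Follicular helper and regulatory T cell genes had the lowest list medians among the T cell groups. Of 21 follicular helper genes 0 were higher and 13 lower, with a median of -2.21, and of 21 regulatory T cell genes 1 was higher and 13 lower, with a median of -1.42. In bulk samples fewer cells of a type and less RNA per cell cannot be told apart, and the CD44hi gate holds both cell types. Cxcr5, the receptor that takes T cells into B cell follicles, was at 0.963 FPKM in WT iNKT and 75.9 in WT CD44hi, 78.8-fold lower in WT iNKT (45.1 to 153). Il21, the cytokine of follicular helper cells, was at 0.135 FPKM in WT iNKT and 14.99 in WT CD44hi, about 1 fragment in WT iNKT, and Angptl2 at 0.0597 against 27.7 FPKM. Cd200 (2.44 against 18.8 FPKM) and the B cell coactivator gene Pou2af1 (0.737 against 16.3 FPKM) were lower as well. Icos and Sh2d1a, which follicular helper and iNKT cells both need, were at 136 against 76.6 FPKM and 127 against 65.9 FPKM, within 2-fold. Foxp3, the defining factor of regulatory T cells, was at 0.446 FPKM in WT iNKT and 53.8 in WT CD44hi, 121-fold lower in WT iNKT (62.8 to 287). Lrrc32, which presents latent TGF-beta on regulatory T cells, was at 0.214 against 11.7 FPKM, and Ikzf4 at 0.172 against 5.94 FPKM. Socs2 was the 1 higher gene of the list.

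Inhibitory and costimulatory receptors overlapped with both groups, with 2 of 24 higher and 12 lower and a median of -1.18. Ctla4, the inhibitory receptor for CD80 and CD86, was at 6.39 FPKM in WT iNKT and 123 in WT CD44hi, 19.3-fold lower in WT iNKT (14.02 to 28.1). Tigit, which competes with Cd226 for the same ligands, was at 1.78 FPKM in WT iNKT and 80.1 in WT CD44hi, 44.9-fold lower in WT iNKT (20.6 to 106), so the 2 receptors of that axis lay on opposite sides. Pdcd1, which encodes PD-1, was at 10.2 against 53.6 FPKM, 5.25-fold lower in WT iNKT (4.26 to 6.57), Lag3 at 0.538 against 38.7 FPKM, and Havcr2, which encodes TIM-3, at 0.0768 against 10.2 FPKM. Lag3 binds MHC class II. Tnfrsf4, which encodes OX40, was at 9.36 against 91.2 FPKM, 9.74-fold lower in WT iNKT (7.14 to 13.7). Cd4 itself was at 98.8 FPKM in WT iNKT and 405 in WT CD44hi, 4.10-fold lower in WT iNKT (3.89 to 4.32). The CD44hi sort selected on CD4 and the tetramer sort did not, so for Cd4 the sort and the cell type cannot be told apart. Cd5, an inhibitory receptor that tracks receptor signal strength, was at 103 against 286 FPKM, and Cd2 at 166 against 394 FPKM. Of the 25 genes for the T cell receptor, CD3 and their kinases, 0 were higher and 6 lower, with a median of -0.30. Among the 11 SLAM receptor and adaptor genes 0 were higher and 2 lower. Slamf1 was at 6.47 against 16.2 FPKM, and Slamf6, which supports iNKT development, at 74.3 against 94.2 FPKM, within 2-fold.

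Activation and memory genes had equal counts, with 10 of 36 higher, 10 lower (27.8% each) and a median of 0.07. Over all 8583 genes the shares were unequal, 3.7% higher and 8.07% lower. The Ly6 genes were on the higher side. Ly6c2 was at 275 FPKM in WT iNKT and 48.9 in WT CD44hi, 5.62-fold higher in WT iNKT (5.05 to 6.25), Ly6a, which encodes Sca-1, at 486 against 176 FPKM, Ly6e at 1452 against 618 FPKM and Ly6c1 at 104 against 35.1 FPKM. With Ly6i they form a run of 5 neighbours on chromosome 15, chr15:74955051-75111970. Ly6c1 and Ly6c2 are near copies, so the split of fragments between them is uncertain. Among the lower genes of the list, the calcium-binding protein gene S100a4 was at 76.1 FPKM in WT iNKT and 601 in WT CD44hi, 7.90-fold lower in WT iNKT (6.58 to 9.60), Vim, which encodes vimentin, at 35.6 FPKM in WT iNKT and 227 in WT CD44hi, 6.36-fold lower in WT iNKT (5.73 to 7.08), and S100a6 at 84.9 against 198 FPKM. The annexin genes of the list differed in opposite directions, Anxa1 at 14.95 against 5.68 FPKM and Anxa2 at 27.1 against 74.3 FPKM. Ahnak (20.8 against 52.5 FPKM) and Emp3 (60.4 against 164 FPKM) were lower, and the TNF family ligand gene Tnfsf8 was at 0.765 against 41.7 FPKM. Genes induced within minutes of stimulation numbered 3 higher and 9 lower of 39. The phosphatase genes Dusp2 (439 against 132 FPKM) and Dusp1 (453 against 209 FPKM) were higher, and the Sprouty inhibitors of growth factor signalling went opposite ways, Spry2 at 13.5 against 1.20 FPKM and Spry1 at 1.61 against 11.3 FPKM. Rgs16, a regulator of G protein signalling, was at 0.636 against 19.3 FPKM. Cd69 was at 63.4 against 70.1 FPKM, within 2-fold.

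The listed interferon stimulated genes differed little but mostly one way. Of 49 measured, 7 were higher (14.3%) and 0 lower, beside 3.7% and 8.07% over all 8583 genes. A value above 0 was found in 36, and the median difference was 0.49 beside -0.04 over all 8583. The list leaves out the interferon-induced genes Ifitm1, Ifitm2, Ifitm3 and Ifitm6, which were lower in WT iNKT, so the count of 0 lower holds for the listed genes only. Ifi47, which encodes an interferon-inducible GTPase, was at 222 FPKM in WT iNKT and 62.8 in WT CD44hi, 3.53-fold higher in WT iNKT (3.30 to 3.77), Oasl1 at 12.6 against 2.76 FPKM and Isg15 at 62.1 against 27.5 FPKM. Ifit3 (29.9 against 12.1 FPKM) and Ifit1 (22.3 against 9.61 FPKM) are the ends of a run of 4 higher neighbours at chr19:34583531-34650009. Of the apoptosis and survival genes 4 of 24 were higher (16.7%) and 2 lower (8.33%). The shares over all 8583 genes were 3.7% and 8.07%, so the lower share was near that of all genes. Bcl2l11, which encodes the death inducer BIM, was at 29.4 FPKM in WT iNKT and 6.95 in WT CD44hi, 4.23-fold higher in WT iNKT (3.68 to 4.88), and Bbc3, which encodes PUMA, at 18.8 against 5.81 FPKM. Pmaip1, which encodes NOXA, was at 0.395 against 39.3 FPKM. The 3 genes belong to the same BH3-only class, and they did not share a direction. Bcl2, which they oppose, was at 23.6 against 12.7 FPKM.

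Nearly all genes of basic metabolism lay within 2-fold. This held for all 43 oxidative phosphorylation genes, with a median of 0.11, and for 40 of 41 ribosomal protein genes. The ribosomal protein genes had a median of 0.41, and 32 of the 41 had a difference above 0, close to the values of the interferon stimulated genes. The exception was Rps13, at 671 against 247 FPKM, for which processed copies make the estimate uncertain. Of 20 glycolysis genes 0 were higher and, beside 8.07% over all 8583, 2 (10%) were lower. These were Hif1a, the hypoxia factor, at 28.2 against 61.6 FPKM, and Eno1, at 1.53 against 44.2 FPKM, which has near-identical copies and is uncertain. Of 37 proliferation genes 1 was higher (2.70%) and 3 lower (8.11%), near the shares over all 8583 genes, 3.7% and 8.07%. Ccnd3, which encodes cyclin D3, was at 164 against 74.1 FPKM and Mki67, the proliferation marker, at 8.47 against 18.1 FPKM. Of 29 genes for Polycomb and H3K27 enzymes 0 were higher and 1, the PRC2 cofactor gene Aebp2, was lower at 42.9 against 91.4 FPKM. Ezh1, the homologue of Ezh2, was at 21.7 against 24.05 FPKM.

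**Figure D3:**
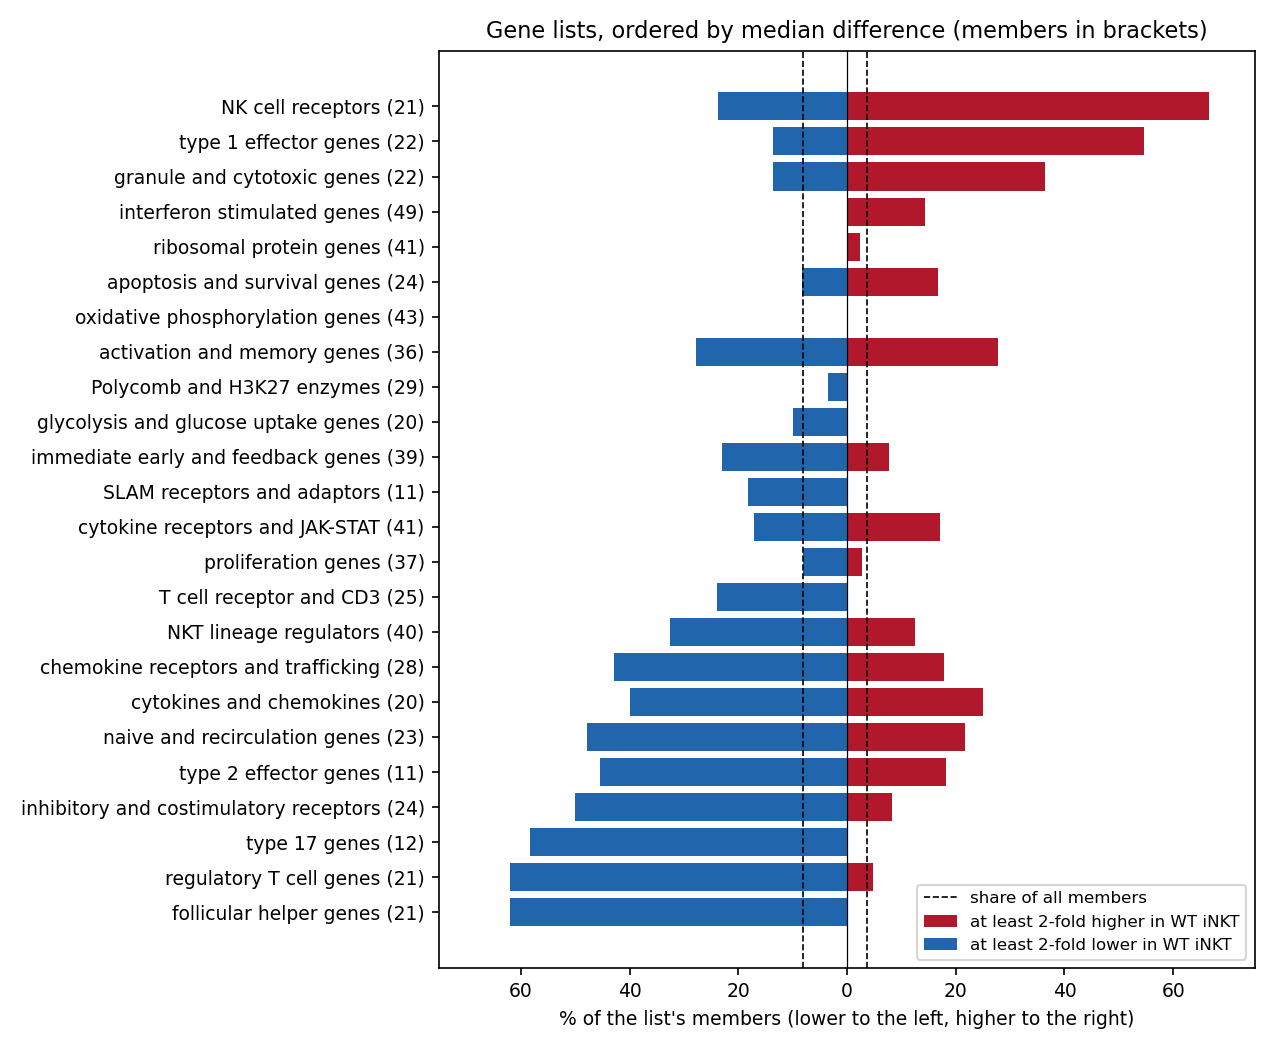
For each T cell or general list, the red bar gives the share of its measured genes at least 2-fold higher in WT iNKT and the blue bar the share at least 2-fold lower; the numbers of genes are in brackets and dashed lines mark 3.7% and 8.07%, the shares over all 8583 genes. NK cell receptors and type 1 genes stand at the top with 14 of 21 and 12 of 22 higher, and regulatory and follicular helper genes at the bottom with 13 of 21 lower each.

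Several of the genes highest in WT iNKT belong to no list used here. Padi2, which encodes an enzyme that converts arginine to citrulline in proteins, was at 86.3 FPKM in WT iNKT and 9.38 in WT CD44hi, 9.20-fold higher in WT iNKT (8.48 to 9.996). Aqp9, a channel for water and glycerol, was at 32.1 FPKM in WT iNKT and 3.25 in WT CD44hi, 9.89-fold higher in WT iNKT (8.16 to 11.97). Qpct, which encodes glutaminyl cyclase, was at 25.5 against 2.53 FPKM. Arl4d, a small GTPase gene, stood at 80.01 against 11.5 FPKM, and Arsb, which encodes the lysosomal enzyme arylsulfatase B, at 78.3 against 13.3 FPKM. Cysltr2, a receptor for cysteinyl leukotrienes, was at 29.5 against 4.51 FPKM, Atp8a2, a phospholipid flippase gene, at 23.6 against 3.32 FPKM, and Prrt1 at 53.4 against 8.27 FPKM. The ratios of these 8 genes lay between 5.90 and 10.1. Eif3j headed the order at 26.4 against 0.00466 FPKM, but its value in WT CD44hi lies under what 1 fragment gives, and its near-identical copy makes the estimate uncertain. Among the lowest genes, Dapl1 was listed at 0 against 26.6 FPKM and Penk, which encodes the opioid precursor proenkephalin, at 0 against 18.4 FPKM. Against the 3-fragment floor they were at least 17.1-fold and at least 39.6-fold lower. Sostdc1, a secreted BMP and Wnt antagonist gene known from follicular helper cells, was at 0 against 20.5 FPKM. Tgoln2 (9.57e-06 against 18.3 FPKM) and Akr1b3 (0.000131 against 17.7 FPKM) have estimates under 1 fragment in WT iNKT and are uncertain.

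The lowest genes of all were those of the MHC class II pathway, which presents peptide to CD4+ T cells and is known from B cells, dendritic cells and macrophages. All 11 measured were lower in WT iNKT, with a median difference of -5.001. H2-Ab1 was at 2.54 FPKM in WT iNKT and 605 in WT CD44hi, 238-fold lower in WT iNKT (142 to 457), and Cd74, the invariant chain, at 14.4 FPKM in WT iNKT and 1337 in WT CD44hi, 92.9-fold lower in WT iNKT (75 to 117). Their summed level was 3045 FPKM in WT CD44hi and 4735 FPKM in KO CD44hi beside 50.4 and 129.9 FPKM in the WT and KO iNKT libraries, so both CD44hi libraries stood above both iNKT libraries. Markers of antigen-presenting and other cells were lower in WT iNKT in the same way. For myeloid cells 20 of 23 measured markers were lower and 1 higher, for B cells 12 of 15 and 0, for dendritic cells 12 of 15 and 2, and for plasmacytoid dendritic cells 13 of 20 and 1. For red cells and platelets 4 of 4 were lower, and for plasma cells 4 of 8. The B cell gene Ms4a1 was listed at 0 in WT iNKT and stood at 4.22 FPKM in WT CD44hi, and Siglech, of plasmacytoid dendritic cells, at 0 against 11.1 FPKM. Itgax, which encodes CD11c, was at 0.329 against 37.8 FPKM, and C1qa, of macrophages, at 0.882 against 47.3 FPKM.

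The summed level of the myeloid list was 936 FPKM in WT CD44hi and 1324 FPKM in KO CD44hi beside 257 and 162 FPKM in the WT and KO iNKT libraries, and that of the B cell list 430.1 and 772 beside 284 and 273 FPKM. The summed dendritic cell list went the other way, at 1369 FPKM in WT iNKT and 733 in WT CD44hi. Most of its sum in WT iNKT was Id2 (1172 against 327 FPKM), a gene also on the list of NKT lineage regulators. Id2 and Ckb (123 against 28.3 FPKM) were the 2 of its genes that were higher in WT iNKT, and 12 of its 15 measured genes were lower. Of the 693 lower genes, 75 were on a list for other cells or for sex, against 4 of the 318 higher and 97 of all 8583. Genes that both T cells and myeloid or B cells transcribe, such as Tyrobp, Fcer1g, Ccl3, Ccl4, Cd83, Havcr2, Tmem176a, Tmem176b and Pou2af1, were low in WT iNKT with these markers. So were Il1b (0 against 26.1 FPKM), Ctsh (0.546 against 34.3 FPKM), Napsa (0.759 against 36.2 FPKM), Dnase1l3 (0.166 against 20.3 FPKM), Tgm2 (0.0579 against 21.2 FPKM) and Lilrb3 (0.262 against 18.3 FPKM). The part of other cells in these values was not tested. The defining CD8 genes were low in both libraries. Of the 5 measured genes on the CD8 T cell list, 3 were higher (Ccl5, Klrd1 and Nkg7, also on other lists) and 2 lower (Cd8b1 and Gzmk).

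**Figure D4:**
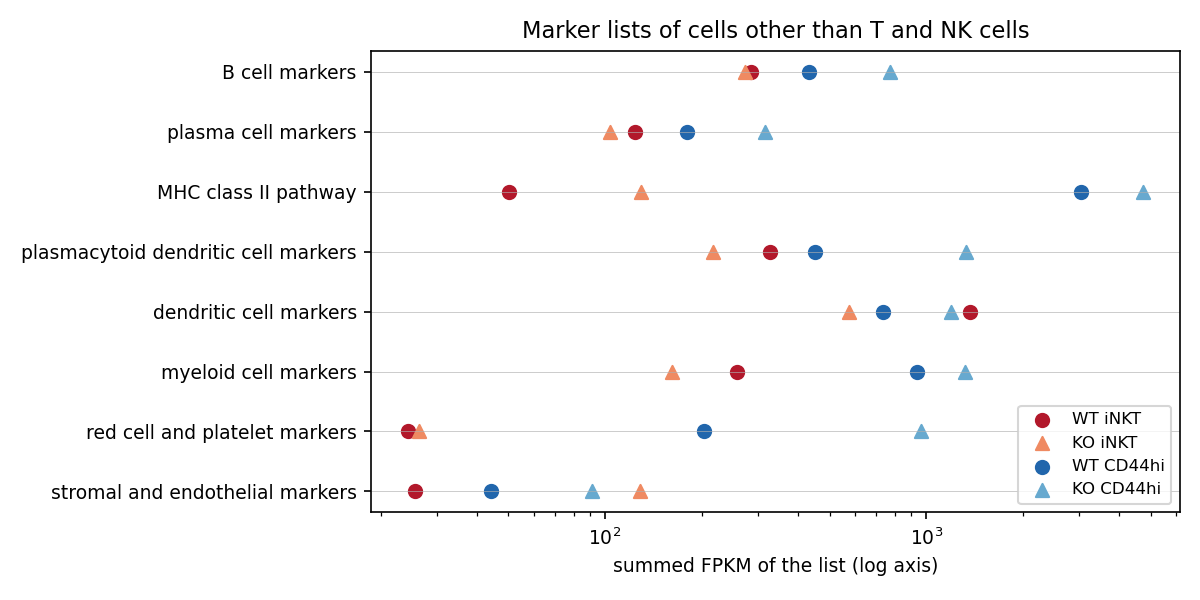
The summed FPKM of each marker list of other cells is shown on a log axis, 1 symbol per library, circles WT and triangles KO, red and orange iNKT, dark and light blue CD44hi. The MHC class II list spans 50.4 to 4735 FPKM, with both iNKT libraries far to the left. WT iNKT lies to the right of WT CD44hi for the dendritic cell list alone, where Id2 stood at 1172 against 327 FPKM.

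The same 8583 genes were then read in the KO pair, KO iNKT against KO CD44hi, which shares no library with the WT pair but differs in genotype and is not a replicate. In that pair 168 of them were higher (1.96%) and 526 lower (6.13%). Of the 318 genes higher in the WT pair, 52 (16.4%) were higher in the KO pair, 250 lay within 2-fold and 16 were lower. Their median difference was 1.46 in the WT pair and 0.37 in the KO pair, and 222 of 318 kept the sign. Of the 693 lower genes, 363 (52.4%) were lower in the KO pair, 304 lay within 2-fold and 26 were higher. Their median was -1.91 in the WT pair and -1.10 in the KO pair, and 577 kept the sign. Both sets were picked by their WT difference, which by itself favours larger medians in the WT pair. The medians of the 2 pairs are thus not alike measures. Read from the KO side, 31.0% of the 168 and 69.0% of the 526 were called in the same direction in the WT pair. The lower genes included those of other cells: the MHC class II median was -5.001 in the WT pair and -4.22 in the KO pair.

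The groups differed in how much of the WT pattern the KO pair showed. The NK receptor median was 2.25 in the WT pair and 0.10 in the KO pair, and the type 1 median 1.38 and -0.68. Klrd1 was 56.5 in KO iNKT and 45.3 in KO CD44hi FPKM, and Cxcr6 was 94.6 in KO iNKT and 127 in KO CD44hi, both below WT iNKT. Ifng was 12.9 in KO iNKT and 17.9 in KO CD44hi, and Tbx21 19.5 in KO iNKT and 37.3 in KO CD44hi, so neither was higher in iNKT cells of the KO pair. Il4 kept its difference, at 118 in KO iNKT and 11.9 in KO CD44hi FPKM, as did the Ly49 gene Klra1, at 107 in KO iNKT and 8.16 in KO CD44hi, and Klrb1a, at 29.9 in KO iNKT and 2.81 in KO CD44hi beside 6.66 against 0.572 FPKM in the WT pair. For Il17rb and Zbtb16 the KO pair differed by less than 2-fold, and KO CD44hi held 80.9 and 41.4 FPKM. The follicular helper median was -2.21 in the WT pair and 0.46 in the KO pair, and Il21 was 13.3 in KO iNKT and 2.34 in KO CD44hi FPKM and Pdcd1 187 in KO iNKT and 23.97 in KO CD44hi. Foxp3 (0.115 in KO iNKT and 13.4 in KO CD44hi) and Ctla4 (4.87 in KO iNKT and 33.8 in KO CD44hi) were lower in iNKT cells of both pairs. The regulatory T cell median was -1.42 and -0.45. Genotype and library cannot be told apart in these comparisons.

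**Figure D5:**
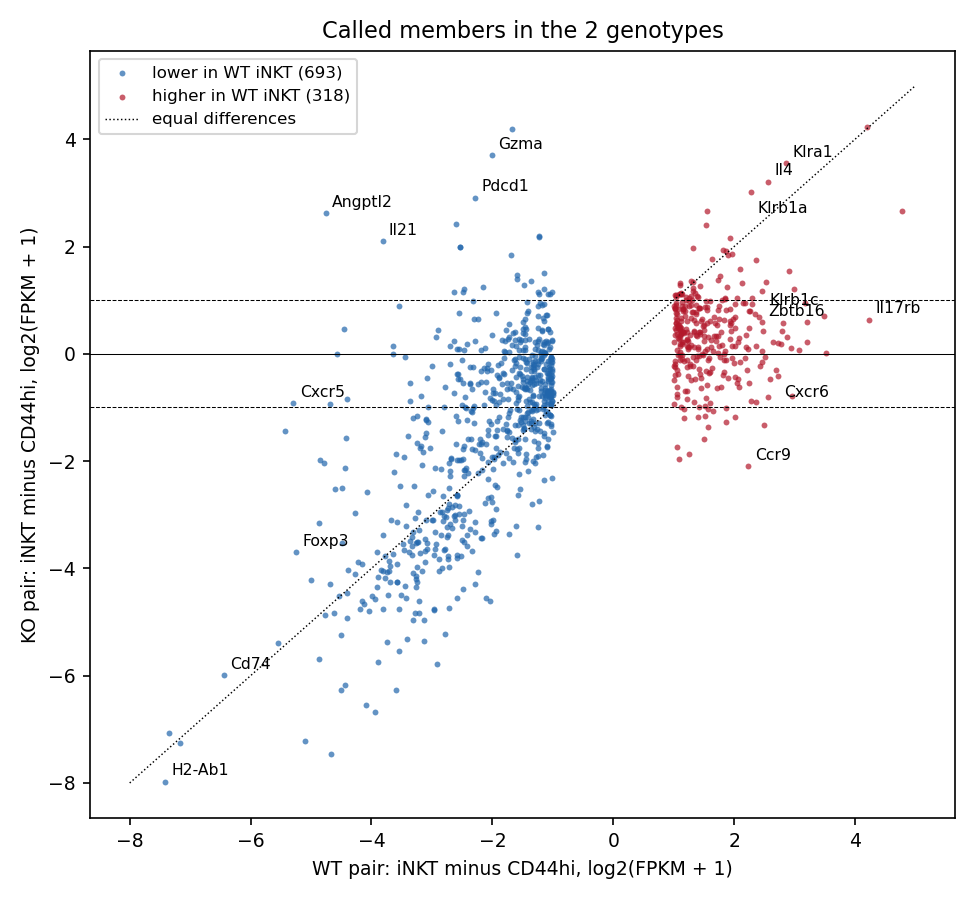
Each point is 1 of the 318 higher (red) or 693 lower (blue) genes of the WT pair, with its log2(FPKM + 1) difference in the WT pair on the x axis and in the KO pair on the y axis; dashed lines mark 2-fold in the KO pair and the dotted line equal differences. Of the red points 52 lie above the upper dashed line, and of the blue points 363 lie below the lower one, with the MHC class II genes H2-Ab1 and Cd74 at the lower left.

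Values near the limits show how sharp the calls are. Just past the 2-fold line on the higher side stood Lyst (32.3 against 15.6 FPKM), which encodes a regulator of lysosome size, and Atp8a1 (18.5 against 8.72 FPKM), and just short of it Gem (9.52 against 4.27 FPKM) and Oas3 (24.4 against 11.8 FPKM). On the lower side Maf was just short of it. At the 5 FPKM limit Aurkb (4.42 against 5.0002 FPKM) was the last gene inside and Slc31a2 (4.66 against 4.99 FPKM) the first outside. Eomes and Il13 were among the genes left out by this limit.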

How the data were processed

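For every library the authors deposited a table of gene symbols with FPKM values, per the file headers. Per the submitters' processing notes the tools were TopHat 1.3.2, Bowtie2 2.0.0 and Cufflinks 2.0.2 on the build mm10, with no step given for any. The libraries came from the TruSeq RNA kit v2, per the labels' protocols, a kit that does not mark the strand, so overlapping genes on opposite strands cannot be told apart. The annotation used is not given in the sources used here.

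Rows sharing a symbol (240 symbols) were summed, 785 small RNA symbols were left out, and 26 symbols turned into dates, found in the CD44hi files alone, were not used. Differences were taken on log2(FPKM + 1). Depth, from the steps of low values in genes of at least 3000 bases, came to between 5.17 (WT iNKT) and 24.9 (KO CD44hi) times 1e6 fragments, where 74.0% to 75.6% of the values came within 0.15 of a whole fragment, with lengths from GENCODE M21 for 99.1% of the 8583 genes. Ratios are plain FPKM ratios. Where WT iNKT was at 0, the ratio is a lower bound against 3 fragments in that library. The depth and interval steps were tested on simulated data with Python 3.11.15, pandas 2.3.3 and scipy 1.17.1.

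Genes were chosen with earlier results of these data known, as were the gene lists. Named were the 25 largest and 25 smallest differences, up to 8 genes per list, preset lineage genes, the 10 largest opposite differences in the KO pair and genes beside the limits, with predicted genes, small RNAs and receptor segments left out. Further genes named beside these were chosen after their values were seen, and a few genes that the rule names are not reported here. Alternatives were other pseudocounts, filters, scalings and a 4-fold limit.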

Additional observations from a re-analysis of the deposited data

Results flagged for a closer look

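In some genes the difference between iNKT and CD44hi had opposite signs in the WT and the KO pair and passed 2-fold in both. They numbered 16 higher in the WT pair and lower in the KO pair and 26 of the reverse kind. Without genes that lack an established symbol 15 and 25 were left, and the 10 with the widest gap among these are given here. With 1 library per group the gap was not tested, and genotype and library cannot be told apart.

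8 of the 10 were lower in WT iNKT and higher in KO iNKT. Angptl2 had the widest gap, -7.38 on the log2 scale (WT difference minus KO difference), with 0.0597 FPKM in WT iNKT, 27.7 in WT CD44hi, 21.6 in KO iNKT and 2.68 in KO CD44hi. Il21 followed at -5.91, with 0.135 FPKM in WT iNKT, 14.99 in WT CD44hi, 13.3 in KO iNKT and 2.34 in KO CD44hi, and Pdcd1, which encodes PD-1, at -5.19, with 10.2 FPKM in WT iNKT, 53.6 in WT CD44hi, 187 in KO iNKT and 23.97 in KO CD44hi. Cd200 had a gap of -4.51, with 2.44 FPKM in WT iNKT, 18.8 in WT CD44hi, 40.8 in KO iNKT and 9.55 in KO CD44hi. These 4 are on the follicular helper list. The granzyme gene Gzma had a gap of -5.71, with 1.72 FPKM in WT iNKT, 9.97 in WT CD44hi, 89.01 in KO iNKT and 5.92 in KO CD44hi. For Ptpn5, a tyrosine phosphatase gene known from neurons, the gap was -5.87, with 0.892 FPKM in WT iNKT, 5.03 in WT CD44hi, 71.4 in KO iNKT and 2.95 in KO CD44hi. For Rln3, which encodes a relaxin family peptide, it was -5.03, with 2.86 FPKM in WT iNKT, 22.5 in WT CD44hi, 166 in KO iNKT and 30.02 in KO CD44hi, and for Sccpdh -4.52, with 1.01 FPKM in WT iNKT, 10.7 in WT CD44hi, 16.4 in KO iNKT and 3.38 in KO CD44hi. KO iNKT was the highest of the 4 libraries in 6 of the 8, all but Angptl2 and Il21, where WT CD44hi was higher.

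The other two were higher in WT iNKT and lower in KO iNKT. The chemokine receptor gene Ccr9 had a gap of 4.33, with 40.96 FPKM in WT iNKT, 7.91 in WT CD44hi, 8.81 in KO iNKT and 40.96 in KO CD44hi, and is also a marker of plasmacytoid dendritic cells, whose summed markers were 451 FPKM in WT CD44hi and 1333 FPKM in KO CD44hi. The part of these cells in its value was not tested. Ly6g5b had a gap of 3.82, with 27.8 FPKM in WT iNKT, 4.14 in WT CD44hi, 7.16 in KO iNKT and 19.5 in KO CD44hi.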

How the results depend on the processing

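With 1 library per side no replicate could be left out. No paired analysis was possible because each group holds 1 library and no result comes from a test. Of the 318 higher genes, a pseudocount of 5 FPKM left 193 and a 4-fold limit 70. The 693 lower genes became 453 with a pseudocount of 5 FPKM, 1223 with a filter at 1 FPKM, 445 with a filter at 10 FPKM, 324 at 4-fold and 341 when 5 FPKM was required in an iNKT library. Under the other alternatives the counts lay between 236 and 408 for higher and between 569 and 762 for lower. The share of calls that were higher was 31.5%, and it was 48.3% with 5 FPKM required in an iNKT library and 17.8% at 4-fold. Every higher gene is at 5 FPKM or more in WT iNKT, so the iNKT filter keeps all 318 and can only remove lower genes. The rise to 48.3% follows from that filter.

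Among the called genes named in the text, 851 of 870 values stayed past 2-fold. The settings were the 2 other pseudocounts, the 2 rescalings and the removal of symbols on several rows, which leaves other genes unchanged. No sign changed, but this was fixed in advance. A pseudocount cannot change a sign, the median log2 ratio that 1 rescaling set to 0 was -0.013, and the other shifted differences by about -0.05. The median of the CD8 T cell markers changed from 1.59 to -1.22 with a filter at 1 FPKM, which takes in Cd8a and other low genes, and that of the NK cell and ILC markers from 0.10 to -0.59. In WT iNKT a transcript of 2 kilobases below 0.323 FPKM rests on fewer than 3 fragments, so low values there are the least certain.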

Other observations

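Runs of neighbouring genes with the same direction, found after the values were seen, also held genes of no list. The Ifitm genes, which encode interferon-induced membrane proteins that limit virus entry, were lower in WT iNKT, unlike most interferon stimulated genes. Ifitm2 was at 1.14 FPKM in WT iNKT, 20.2 in WT CD44hi, 1.69 in KO iNKT and 26.1 in KO CD44hi, Ifitm3 at 5.45 FPKM in WT iNKT, 26.7 in WT CD44hi, 0.807 in KO iNKT and 41.2 in KO CD44hi, and Ifitm6 at 0 FPKM in WT iNKT, 16.8 in WT CD44hi, 0 in KO iNKT and 23.3 in KO CD44hi. With Ifitm1 and B4galnt4 they fill chr7:140954837-141072400, and both CD44hi libraries were above both iNKT libraries. Myeloid markers were higher in the same CD44hi libraries, and their part was not tested.

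On the X chromosome 4 neighbours at chrX:136954988-137038302 were higher in WT iNKT. Among them Mcart6, a mitochondrial carrier gene, was at 28.9 FPKM in WT iNKT, 4.63 in WT CD44hi, 14.1 in KO iNKT and 8.37 in KO CD44hi, and Tmsb15l, a thymosin beta gene with near-identical copies, at 11.5 FPKM in WT iNKT, 2.42 in WT CD44hi, 18.98 in KO iNKT and 4.29 in KO CD44hi. On chromosome 13, Ctla2a and Ctla2b, which encode inhibitors of cathepsin-type proteases, were higher together, Ctla2a at 54.05 FPKM in WT iNKT, 16.6 in WT CD44hi, 21.8 in KO iNKT and 46.9 in KO CD44hi and Ctla2b at 27.2 FPKM in WT iNKT, 6.34 in WT CD44hi, 25.4 in KO iNKT and 18.5 in KO CD44hi. For Ctla2a the KO pair had the opposite order. Cd1d1, which encodes the molecule that presents lipids to iNKT cells, did not separate the libraries, at 18.1 FPKM in WT iNKT, 17.98 in WT CD44hi, 14.2 in KO iNKT and 19.2 in KO CD44hi.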
